A study of Mus musculus with 4 samples.

Results

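The cells described here were selected by 3 conditions on the deposited counts of unique molecular identifiers (UMIs, each a captured transcript): at least 2 UMIs of *Myog*, 0 UMIs of *Ptprc*, the pan-leukocyte gene CD45, and at most 10% of UMIs from mitochondrial genes. Of 62665 deposited cells in 4 single-cell RNA libraries, 59824 passed the mitochondrial limit and 452 met all conditions. The libraries came from the tibial muscle of *Nse-Bmp4* mice on a C57BL/6 background, 6 to 8 weeks old, in which the neuron specific enolase promoter drives *Bmp4*. The muscle was uninjured (Uninjured) or taken at 1, 3 and 7 days after injury with cardiotoxin (dpi), and each time point was 1 pool of 3 muscles. All 4 groups carried the transgene, so no library represents muscle without it. With 1 library per time point a difference between time points and a difference between libraries cannot be told apart. No test was possible and no p-value is given. Intervals are 95% intervals for counting error only.

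*Myog* encodes myogenin, the transcription factor that switches proliferating myoblasts to differentiation. Satellite cells, the *Pax7*-positive stem cells of muscle, give rise to myoblasts that express *Myod1*, then *Myog*, leave the cell cycle through the inhibitors p21 (*Cdkn1a*) and p57 (*Cdkn1c*), fuse through the membrane proteins myomaker (*Mymk*) and myomixer (*Mymx*), and build sarcomeres from actin, troponin and myosin. Myogenin and MyoD bind the E-box, and MEF2 factors bind an A and T rich site beside it.

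*Myog* lies at chr1:134289989-134292548 on the plus strand of GRCm38. The 250 bases before the RefSeq start of *Myog* and of 3 genes described below are shown because the cells were selected on the first and the other 3 are muscle genes whose levels are set beside it: *Chrna1*, a subunit of the acetylcholine receptor at the junction with nerve, *Acta1*, skeletal muscle alpha actin, and *Mylpf*, the fast myosin regulatory light chain. Capitals mark each match to the E-box CANNTG, which reads the same on both strands. The stretches are chr1:134289754-134290003 (plus strand), chr2:73580339-73580588 (minus), chr8:123894776-123895025 (minus) and chr7:127211358-127211607 (plus) of GRCm38.p6, each written 5′ to 3′ along its gene.
Myog: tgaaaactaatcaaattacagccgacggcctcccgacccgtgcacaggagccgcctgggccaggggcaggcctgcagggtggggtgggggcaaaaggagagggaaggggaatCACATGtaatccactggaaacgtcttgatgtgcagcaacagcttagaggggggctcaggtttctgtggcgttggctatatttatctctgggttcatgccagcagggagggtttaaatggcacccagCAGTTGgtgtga
Chrna1: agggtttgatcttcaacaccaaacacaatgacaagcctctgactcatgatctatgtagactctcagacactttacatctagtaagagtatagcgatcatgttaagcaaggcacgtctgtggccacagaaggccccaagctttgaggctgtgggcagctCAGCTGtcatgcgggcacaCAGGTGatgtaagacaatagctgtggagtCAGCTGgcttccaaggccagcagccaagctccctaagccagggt
Acta1: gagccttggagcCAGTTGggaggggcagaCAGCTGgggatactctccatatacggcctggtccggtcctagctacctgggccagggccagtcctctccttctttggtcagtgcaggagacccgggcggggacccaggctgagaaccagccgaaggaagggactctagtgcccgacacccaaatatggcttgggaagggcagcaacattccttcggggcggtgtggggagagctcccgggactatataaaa
Mylpf: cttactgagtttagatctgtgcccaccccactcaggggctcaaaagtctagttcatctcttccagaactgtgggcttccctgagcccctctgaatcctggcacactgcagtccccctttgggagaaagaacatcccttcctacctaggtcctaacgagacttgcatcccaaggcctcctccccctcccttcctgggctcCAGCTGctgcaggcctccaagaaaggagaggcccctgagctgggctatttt
*Myog* held 2 E-boxes, *Chrna1* 3, *Acta1* 2 and *Mylpf* 1. None of the 4 windows held an exact match to the MEF2 consensus YTAWWWWTAR (Y is C or T, W is A or T, R is A or G). Near matches were not counted, such as ctatatttat in the *Myog* window, which departs from the consensus only in its last letter. E-boxes stood in 66.2% of all 32851 RefSeq promoters searched over the same 250 bases and in 75% of the 84 promoters found for 73 of 110 listed muscle genes. The form CAGCTG, which is itself an E-box, stood in 13.0% of all and in 33.3% of the muscle promoters, and the MEF2 consensus in 2.92% and 11.9%. These are matches of letters and not measured binding.

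Selected cells were found in 3 of the 4 libraries. They were 47 of 11827 cells in the Uninjured library (0.397%, Clopper-Pearson interval 0.292 to 0.528), 0 of 10853 at 1 dpi, 134 of 14118 at 3 dpi (0.949%, 0.796 to 1.12) and 271 of 23026 at 7 dpi (1.18%, 1.04 to 1.32). Taking 3 cells as the limit for a count of 0, the share at 1 dpi could be up to 0.0276% (the Clopper-Pearson upper bound is 0.0340%), and satellite cells were present there (81 cells). Each pair of libraries shared between 30 and 95 cell barcodes over all cells and 0 among selected cells. The libraries held medians of 8629, 5561.5, 4214 and 3083 UMIs per deposited cell in order of time. With every cell thinned to 3000 UMIs before selection, which left out 1220, 2303, 4953 and 11040 cells, the shares were 0.368%, 0%, 0.949% and 1.21%.

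The label of differentiating myoblasts did not hold for all selected cells. In each cell the UMIs of 90 listed muscle genes (myogenic factors without *Myog*, fusion, thin and thick filament, assembly and junction genes) were set against those of 15 markers of fibroblasts and chondrocytes, a split made after the values had been seen. Muscle genes exceeded the matrix markers in 42 of 47 selected cells in the Uninjured library (89.4%), 109 of 134 at 3 dpi (81.3%) and 82 of 271 at 7 dpi (30.3%, interval 24.8 to 36.1). These cells are called muscle-led below and the rest matrix-led. The split is a cut on a ratio and not a type, yet at 7 dpi only 16 cells lay within 2-fold of the cut, while 65 lay over 4-fold to the muscle side and 156 over 4-fold to the matrix side. Muscle-led cells alone made up 0.355%, 0%, 0.772% and 0.356% of the libraries, so that the larger share of selected cells at 7 dpi than at 3 dpi came from matrix-led cells.

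**Figure D1:**
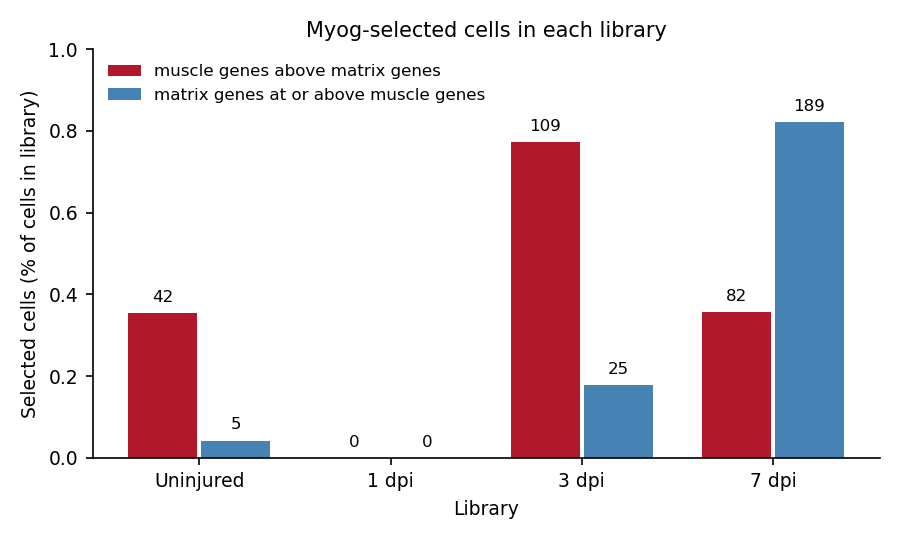
Selected cells as a percentage of the cells of each library (bars from 0, with the number of cells above each), split by whether muscle genes exceeded the matrix markers. Muscle-led cells were 42, 0, 109 and 82 in order of time and matrix-led cells 5, 0, 25 and 189.

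**Figure D2:**
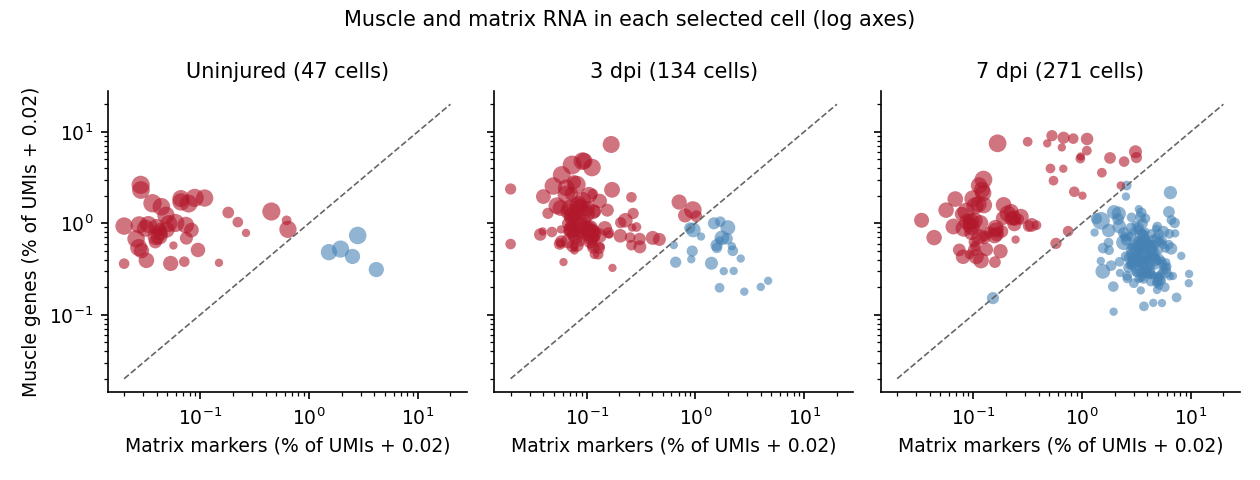
Share of each selected cell's UMIs in the 90 muscle genes against its share in the 15 matrix markers, both in percent with 0.02 added and on log axes. Red points are muscle-led, blue points matrix-led, point size grows with the *Myog* count and the dashed line is equality. At 7 dpi most cells fall in a matrix-rich group with small points.

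The matrix-led cells at 7 dpi carried cartilage RNA. *Col2a1*, the main collagen of cartilage, stood at 4694 CPM in them against 382 CPM in the muscle-led cells of the same library, and *Acan*, the cartilage proteoglycan aggrecan, at 1038 against 52.7 CPM (CPM, UMIs per 1000000 over the summed cells). Both genes are among the matrix markers that made a cell matrix-led, so the split itself favoured this direction. Immune cells of the same library, gated on *Ptprc*, held *Col2a1* at 1377 CPM and *Acan* at 384 CPM. *Col2a1* gave 0 UMIs in muscle-led cells of the Uninjured and 3 dpi libraries. The median *Myog* count of the matrix-led cells at 7 dpi was 3 UMIs per cell against 16 in muscle-led cells, at median depths of 3604 and 6182.5 UMIs. Of the cells selected with exactly 2 *Myog* UMIs at 7 dpi, 8 of 93 were muscle-led, against 45 of 60 with 10 or more. Just outside the limit, 19 of 301 cells with 1 *Myog* UMI were muscle-led. The same bins at 3 dpi held 28 of 128 (1 UMI), 17 of 28 (2 UMIs) and 60 of 64 (10 or more).

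Set against 4786 *Col2a1*-positive cells without *Myog* in the same library (at least 5 *Col2a1* UMIs), the 189 matrix-led cells held more RNA of muscle genes besides *Myog*. *Mymk* stood at 126 against 0.505 CPM, a ratio of 249 (142 to 471), *Actc1*, cardiac alpha actin, which early skeletal muscle also uses, at 340 against 1.87 CPM, and *Myod1* at 78.7 against 0.829 CPM. The gates differ in *Myog* itself, so genes found together with *Myog* were favoured. Over all 4978 *Col2a1*-positive cells, with *Myog* left free and selected cells among them, *Mymk* stood at 3.51 and *Actc1* at 11.6 CPM. The spread of these sums over the 189 cells was not tested. *Myog* itself gave at least 1 UMI in 3.86% of *Col2a1*-positive cells and in 1.41% of immune cells, which should lack it, at median depths of 3598.5 and 2805 UMIs, while its level was 14.4 CPM in the former and 18.0 CPM in the latter, so no order is read from these. Among matrix-led cells 40.0%, 32.0% and 7.41% (Uninjured, 3 and 7 dpi) were in the 7.5% of their library with the highest doublet scores, against 0%, 6.42% and 1.22% of muscle-led cells. The part of doublets and of free RNA in the matrix-led cells was not tested. The values that follow are of muscle-led cells unless stated, which the split itself keeps rich in muscle genes and poor in matrix genes.

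Muscle-led cells had median depths of 12872, 20796 and 6182.5 UMIs in the Uninjured, 3 dpi and 7 dpi libraries. Their *Myog* counts had medians of 64.5, 12 and 16 UMIs per cell, with highest values of 144, 196 and 104. Summed *Myog* levels were 4771, 1204 and 3423 CPM, lowest at 3 dpi, as were the medians over cells of 4503, 1055 and 2889 CPM. *Myog* chose the cells, so these levels are a description. Of the other markers given for these cells, *Acta1* stood at 1173, 582 and 2105 CPM, *Mylpf* at 0, 765 and 760 CPM and *Tnnt3*, fast troponin T, at 10.1, 222 and 275 CPM. *Acta1* had UMIs in 61.9%, 44.0% and 69.5% of the cells, and in 1.05%, 1.30% and 2.77% of immune cells, at immune median depths of 5421, 4416 and 2805 UMIs. *Mylpf* was at 0 in all 42 Uninjured cells. A few cells carried much of these sums: without the 5 highest cells of each library *Acta1* stood at 642, 212 and 1228 CPM and *Mylpf* at 392 and 328 CPM at 3 and 7 dpi.

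**Figure D3:**
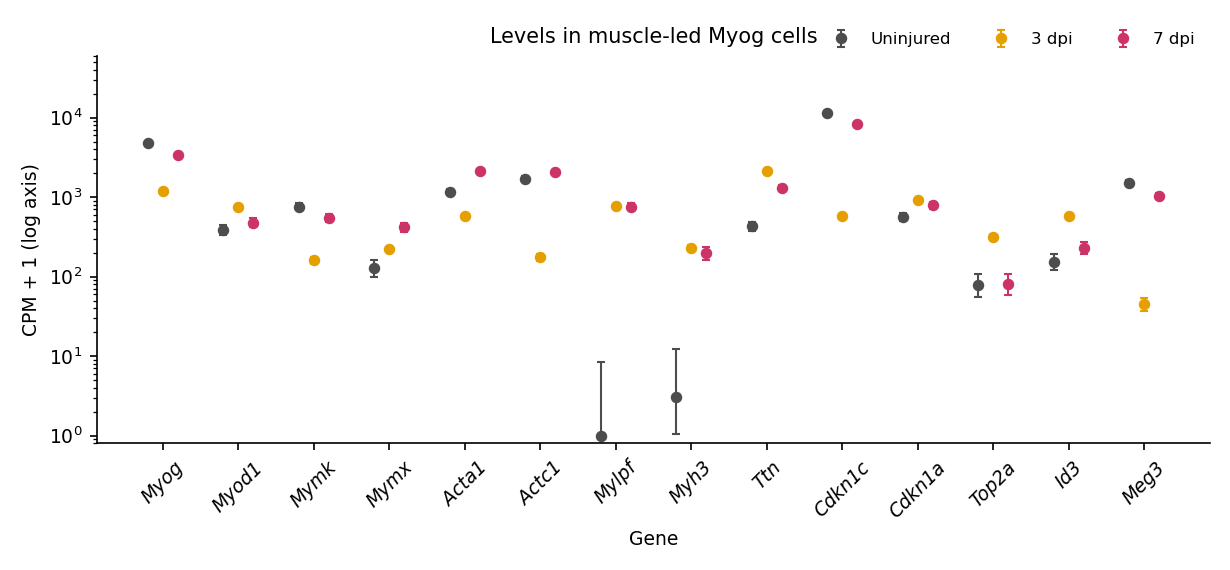
Levels of 14 genes in muscle-led cells of the Uninjured, 3 dpi and 7 dpi libraries, in CPM with 1 added on a log axis, with bars for the exact Poisson 95% interval of the summed count. *Cdkn1c*, *Actc1*, *Mymk* and *Meg3* dip at 3 dpi, *Top2a* and *Id3* peak there, and *Mylpf* and *Myh3* are near 0 only in the Uninjured library.

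The question of the time series is how the cells differ as repair proceeds. The first comparison set all 271 selected cells at 7 dpi against all 134 at 3 dpi. Of 7900 genes with at least 50 UMIs over both, 1360 were at least 1.5-fold higher at 7 dpi (17.2%) and 2432 at least 1.5-fold lower (30.8%), and the higher share of these calls moved from 35.9% to 52.5% when the median gene was scaled to no change. All 7 chondrocyte and all 8 fibroblast markers were higher and all 16 mitosis genes were lower. Of the chondrocyte markers 5 gave 0 UMIs at 3 dpi, where *Sox9* made up 109 of the 110 CPM of the list. The limit of 50 UMIs thus favoured their direction, and no result is read from the chondrocyte count. The 10 largest ratios upward included *Comp*, a cartilage matrix protein (979 against 1.80 CPM), *Pth1r*, the parathyroid hormone receptor (208 against 3.24 CPM), and *Tnn*, the matrix protein tenascin N (171 against 4.31 CPM). The 10 downward included *Trp53i11* (3.62 against 129 CPM), *Gal*, the neuropeptide galanin (44.1 against 931 CPM), *Xirp2*, an actin-binding protein of muscle (3.62 against 45.6 CPM), and *Eno3*, muscle enolase (60.8 against 581 CPM). Because matrix-led cells were 189 of the 271 cells at 7 dpi, the same comparison was made in muscle-led cells alone.

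In muscle-led cells, 811 of 6567 genes were past 1.5-fold higher at 7 dpi than at 3 dpi (12.3%) and 2386 lower (36.3%). The median gene had a log2 ratio of -0.31, and scaling it to 0 moved the higher share of the calls from 25.4% to 47.0%. List values below are given beside that median. Between the Uninjured library and 3 dpi, 2651 of 6502 genes were higher at 3 dpi (40.8%) and 905 lower (13.9%), with a median of 0.35 over genes above 0 in both, and scaling moved the higher share from 74.6% to 53.7%. The 2 comparisons share the 3 dpi cells, which were the deepest.

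Cell cycle genes were highest at 3 dpi. The 15 DNA replication genes (the MCM helicase, *Pcna*, ribonucleotide reductase and others) summed to 178 CPM in Uninjured cells, 1409 CPM at 3 dpi and 292 CPM at 7 dpi. At 7 dpi 14 of 15 were past 1.5-fold lower than at 3 dpi with a median log2 ratio of -2.48, and 14 of 15 were higher at 3 dpi than in the Uninjured library. The 16 mitosis genes summed to 1003, 2048 and 468 CPM. All 16 were lower at 7 dpi than at 3 dpi (median log2 ratio -2.51, summed ratio 0.229, interval 0.201 to 0.260), and 13 of 16 were higher at 3 dpi than in the Uninjured library. After scaling to the median gene, the counts against 3 dpi stayed at 14 and 16 lower at 7 dpi, and were 13 and 11 higher than in the Uninjured library. Before scaling, 36.3% of all genes were lower at 7 dpi than at 3 dpi, and 40.8% were higher at 3 dpi than in the Uninjured library. No replication gene reached 50 UMIs in Uninjured or 7 dpi cells alone, and no mitosis gene did at 7 dpi. The limit of 50 UMIs thus favoured genes high at 3 dpi, and no result is read from these counts. The sums do not use this limit.

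Cells with a UMI of *Mki67* or *Top2a*, both proliferation genes, were 9 of 42 in the Uninjured library, 73 of 109 at 3 dpi and 10 of 82 at 7 dpi (21.4%, 67.0% and 12.2%). Thinned to 3000 UMIs the shares were 18.9%, 51.0% and 9.38% of 37, 100 and 64 cells, so 3 dpi was also highest at equal depth. In satellite cells the thinned shares were 3.01%, 48.6% and 25%. In immune cells, which can themselves divide, *Mki67* alone gave thinned shares of 5.16%, 21.4% and 18.7%. In the Uninjured and 7 dpi libraries the signal lay in few cells: 5 cells held 97.4% of *Top2a* UMIs in the former and 97.6% in the latter, against 40.2% at 3 dpi. At 3 dpi, 16 of 100 thinned cells had UMIs of *Mki67* or *Top2a* together with *Mylpf*, *Acta1* or *Tnnt3*, and 35 had the former without the latter.

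Among the genes of cell cycle exit, *Cdkn1c* differed most. It encodes p57, an imprinted inhibitor of cyclin dependent kinases, at chr7:143458339-143461050. Its levels were 11532 CPM (11235 to 11836) in Uninjured cells, 576 CPM at 3 dpi and 8341 CPM at 7 dpi, which is 20-fold lower (18.9 to 21.2) at 3 dpi than in the Uninjured library and 14.5-fold higher (13.6 to 15.4) at 7 dpi than at 3 dpi. It had UMIs in 97.6%, 56.9% and 79.3% of cells, and in 97.3%, 42.0% and 87.5% after thinning to 3000 UMIs. The thinned shares in immune cells were 5.92%, 2.77% and 11.2%. *Cdkn1a* (p21) did not follow it, at 560, 932 and 786 CPM. Of the 13 listed genes of this group, 5 of 10 tested were higher and 1 lower at 7 dpi than at 3 dpi. Over all genes 12.3% were higher and 36.3% lower. *Rb1*, the retinoblastoma protein, stood at 127, 45.7 and 79.0 CPM, and *Ccnd1*, cyclin D1, which drives cycling, was the member lower at 7 dpi, at 111, 406 and 182 CPM.

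Fusion genes were detected in all 3 libraries. *Mymk* (chr2:27061636-27072179) stood at 760, 159 and 553 CPM, 4.77-fold lower (4.13 to 5.51) at 3 dpi than in the Uninjured library and 3.47-fold higher (2.97 to 4.05) at 7 dpi than at 3 dpi. *Mymx* (chr17:45600971-45602102) had its lowest level in Uninjured cells, at 127, 219 and 419 CPM. The intervals of neighbouring time points did not overlap for either gene. *Mymk* had UMIs in 76.2%, 58.7% and 67.1% of cells and in 0%, 0.286% and 0.322% of immune cells. Thinned to 3000 UMIs, *Mymk* had UMIs in 73.0%, 30% and 57.8% of cells. *Mymx* had thinned shares of 16.2%, 37.0% and 37.5%, alike at 3 and 7 dpi. Without the 5 highest cells of each library *Mymx* stood at 36.1, 169 and 257 CPM. *Jam3*, an adhesion molecule, followed the order of *Mymk* (321, 50.7 and 267 CPM). Of 8 fusion and adhesion genes tested, 4 were higher and 2 lower at 7 dpi than at 3 dpi, with a median log2 ratio of 0.48. Over all genes 12.3% were higher and 36.3% lower.

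Other myogenic factors did not all share the order of *Myog*. *Myod1* stood at 386, 755 and 478 CPM, highest at 3 dpi, and *Mef2a* at 121, 509 and 160 CPM. *Mef2c*, a partner of *Myog* in differentiation, stood at 52.6, 29.8 and 130 CPM. Of the satellite cell genes *Pax7* was at 20.2, 38.8 and 15 CPM and *Myf5* at 0, 32.7 and 9.40 CPM, and *Myf6* gave 0 UMIs in all 3. At 7 dpi 6 of 10 tested satellite cell genes were lower than at 3 dpi, against 36.3% of all genes, and *Cxcr4*, a chemokine receptor, was higher. With the median gene scaled to no change 6 were lower and 2 higher.

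Sarcomere genes differed between the libraries by subunit rather than together. The 16 thin filament genes summed to 4361, 3682 and 7514 CPM. Of 15 tested, 8 were higher and 3 lower at 7 dpi than at 3 dpi (median log2 ratio 0.61), against 12.3% and 36.3% of all genes. *Actc1* stood at 1702, 173 and 2091 CPM, a 12.1-fold difference (10.8 to 13.5) between 7 and 3 dpi, and at 1145, 64.0 and 1541 CPM without the 5 highest cells of each. The slow troponins *Tnni1* (48.5, 80.9 and 278 CPM) and *Tnnc1* (0, 38.8 and 135 CPM) were higher at 7 dpi than at 3 dpi, while the fast troponins *Tnni2* (8.09, 298 and 69.6 CPM) and *Tnnc2* (6.07, 240 and 80.9 CPM) were lower. At 7 dpi 5 cells held 73.6% of *Tnni1* UMIs, and without the 5 highest cells of each library *Tnni1* stood at 42.4 CPM at 3 dpi and 79.6 CPM at 7 dpi. *Tnnt3*, also fast, stood at 222 and 275 CPM at 3 and 7 dpi, but at 136 and 92.7 CPM without the 5 highest cells of each, and had UMIs in 58.7% and 24.4% of cells (30% and 9.38% thinned).

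The 18 thick filament genes summed to 184, 1368 and 1796 CPM. All 5 genes tested between the Uninjured library and 3 dpi were higher at 3 dpi, against 40.8% of all genes. None of the list reached 50 UMIs in Uninjured cells alone, where *Myl1*, the most abundant, had 42. The limit of 50 UMIs thus favoured this direction, and no result is read from the count. *Myh3*, the embryonic myosin heavy chain, stood at 2.02, 228 and 196 CPM, with 1 UMI in the 42 Uninjured cells, and at 77.4 and 90.5 CPM at 3 and 7 dpi without the 5 highest cells of each. Of the adult heavy chains *Myh1* stood at 14.2, 51.9 and 30.1 CPM, *Myh4* had at most 10 UMIs in a library and *Myh7* had 0. *Myl4*, an embryonic light chain, stood at 18.2, 87.0 and 252 CPM. *Mylpf* at 3 dpi was at least 126-fold higher than in the Uninjured library, counting 3 UMIs as the limit for its 0 UMIs there. The summed ratio of the thick filament at 7 dpi to 3 dpi of 1.31 (1.22 to 1.41) was 0.905 among cells with at least 3000 UMIs and 0.889 among cells with at least 5 *Myog* UMIs. Its direction thus did not hold without the shallow cells or those low in *Myog*.

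*Mylpf* RNA at 7 dpi lay in a minority of cells. In all, 17 of 82 muscle-led cells had at least 5 UMIs of *Mylpf*, and 55 had none. The 17 cells, grouped after their values had been seen, had a median depth of 2231 UMIs against 6661 in the 55. *Acta1* stood at 12717 CPM in the former against 659 CPM in the latter, *Tnni1* at 2052 against 62.7, *Myh3* at 1514 against 25.1 and *Ttn*, the giant protein titin, at 6459 against 619 CPM. *Cdkn1c* went the other way, at 2624 against 9545 CPM, as did *Meg3*, an imprinted long noncoding RNA, at 50.5 against 1156 CPM. The 17 cells gave 0 UMIs of *Mki67* and *Top2a*. *Col1a1*, a matrix collagen, stood at 3162 CPM in them against 281 CPM, and the part of free RNA in these shallow cells was not tested.

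At 3 dpi the same limit of 5 UMIs stands for a lower *Mylpf* level, since median depths were 25665 UMIs in the 33 cells with at least 5 *Mylpf* UMIs and 16620.5 in the 40 cells without it. The 33 cells had *Acta1* at 1458 CPM, *Myh3* at 577 and *Ttn* at 3432 CPM, against 30, 6.0 and 1442 CPM in the 40 cells. *Myog* (2000 against 561 CPM), *Mymk* (343 against 33.6 CPM) and *Cdkn1c* (889 against 386 CPM) were also higher in them, and *Top2a* was lower (143 against 485 CPM). In the Uninjured library, where *Mylpf* had 0 UMIs, *Cdkn1c* was at 11532 CPM. Outside the selection, 9 cells at 7 dpi with over 10% mitochondrial UMIs and at least 2 *Myog* UMIs had *Mylpf* at 10150 CPM and *Tnnt3* at 7470 CPM, so the limit on mitochondrial UMIs leaves out cells with high levels of fast filament RNA.

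**Figure D4:**
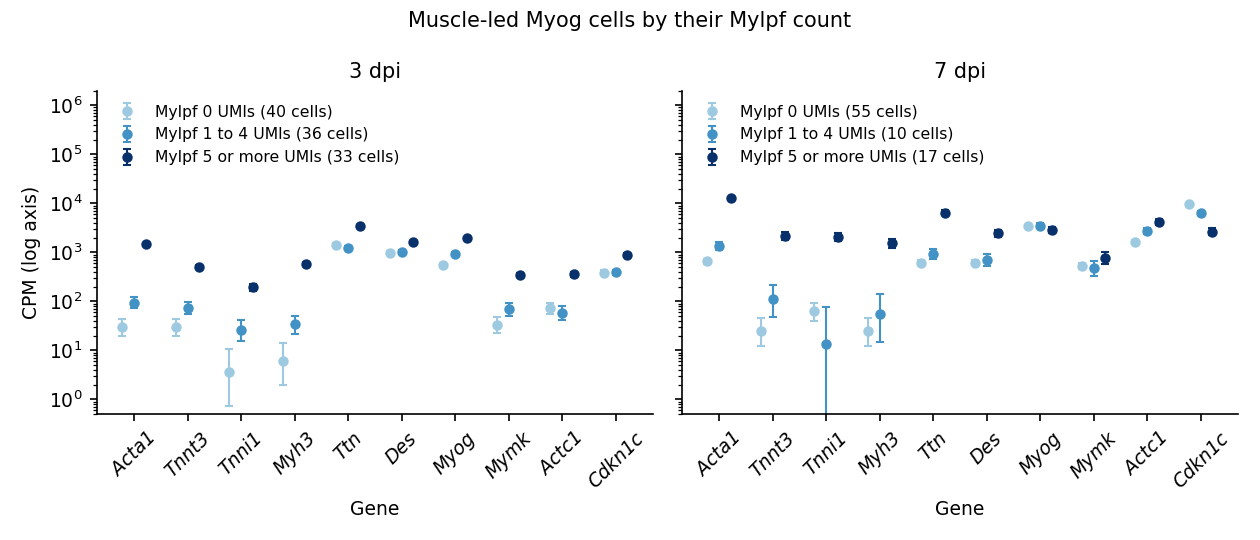
Levels of 10 genes in muscle-led cells at 3 and 7 dpi, grouped by the *Mylpf* count of the cell, in CPM on a log axis with exact Poisson 95% intervals. The groups are set on raw counts, not adjusted for the depth of the cells, and *Acta1* is highest in the group with most *Mylpf* in both libraries (1458 and 12717 CPM).

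Over thinned cells of 1 library, *Myog* and the summed sarcomere UMIs had Spearman correlations of 0.62 (37 cells, Uninjured), 0.55 (100 cells, 3 dpi) and 0.51 (64 cells, 7 dpi), and *Myog* and the cycling genes of -0.42, -0.34 and -0.32. The cells of a library share its source and depth step, *Myog* chose the cells and the sarcomere and fusion genes helped to define the muscle-led ones, so these values and the shares that follow are descriptions. In the 50 thinned cells of 3 dpi with most *Myog*, *Mymk* was detected in 54.0% against 6.00% of the other 50, *Mymx* in 58.0% against 16.0% and *Myh3* in 40.0% against 4.0%, while *Top2a* was detected in 22% against 54.0%. *Myod1* was detected in similar shares of both (86.0% and 80.0%).

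Several genes of sarcomere assembly were highest at 3 dpi. *Ttn* stood at 429, 2132 and 1317 CPM, *Des*, the intermediate filament desmin, at 396, 1241 and 835 CPM and *Xirp1*, an actin-binding protein of muscle, at 2.02, 83.7 and 22.6 CPM. The chaperone *Cryab* had the other order, at 1868, 301 and 1288 CPM. Of 9 junction genes tested, 6 were higher at 3 dpi than in the Uninjured library, against 40.8% of all genes. From 3 to 7 dpi 3 of the 9 were lower, against 36.3% of all genes, with a median log2 ratio of -0.31, equal to that of all genes, and with the median gene scaled to no change 2 were higher and 3 lower. Among the 3 were *Chrnd* and *Chrng*, the delta and fetal gamma subunits of the acetylcholine receptor (65.8 to 18.8 and 63.7 to 20.7 CPM from 3 to 7 dpi). *Chrna1*, whose promoter is shown above, stood at 398, 596 and 463 CPM.

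*Bmp4* is the transgene of these mice, and the immediate targets of BMP signals include the *Id* genes, whose proteins block MyoD family factors. *Id3* stood at 154, 577 and 229 CPM, 2.52-fold lower (2.09 to 3.05) at 7 dpi than at 3 dpi, *Id2* at 50.5, 283 and 115 CPM and *Id1* at 289, 231 and 139 CPM. Without the 5 highest cells of each library *Id3* stood at 29.4, 510 and 103 CPM. The 16 genes of BMP response and receptors summed to 873, 1503 and 826 CPM, with 5 of 10 tested lower and 0 higher at 7 dpi (36.3% of all genes were lower), and 3 lower after scaling to the median gene, so nothing particular to the list is read from these counts. *Bmp4* itself gave 3, 11 and 2 UMIs. In satellite cells *Id3* was higher, at 1431, 743 and 1010 CPM.

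Growth factor genes did not share an order across the libraries. *Igf2*, a growth factor of fetal muscle, stood at 115, 9.40 and 192 CPM, *Igf1* at 20.2, 5.72 and 109 CPM and *Fst*, follistatin, which binds myostatin and activins, at 4.04, 5.72 and 99.7 CPM. *Meg3* stood at 1524, 43.7 and 1021 CPM. *H19*, an imprinted RNA beside *Igf2*, had another order, at 10.1, 442 and 284 CPM, as did *Igfbp5*, an IGF binding protein, at 18.2, 565 and 209 CPM. Without the 5 highest cells of each library *H19* stood at 0, 364 and 140 CPM and *Igfbp5* at 0, 462 and 66.9 CPM. In the Uninjured library *H19* had UMIs in 4 of 42 cells and *Igfbp5* in 2, so the values of 0 follow from the removal. Of 13 tested genes in this list 8 were higher and 3 lower at 7 dpi than at 3 dpi (median log2 ratio 0.88). Over all genes 12.3% were higher and 36.3% lower. *Mstn*, myostatin, gave 0 UMIs in all 3 libraries.

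The immediate early genes, which respond to cell handling as well as to growth signals, moved with these groups. The 12 genes summed to 24025, 3667 and 14403 CPM, with *Fos* at 7764, 558 and 4394 CPM, and they were also lowest at 3 dpi in satellite cells, at 47549, 11020 and 27310 CPM in the same order. Their part in the other differences was not tested. RNA of matrix cells, limited but not removed by the split, moved with the time points in muscle-led cells. Fibroblast markers summed to 671, 859 and 1922 CPM and chondrocyte markers to 50.5, 118 and 698 CPM. *Col1a1* and *Col2a1* were the most abundant at 7 dpi, where 90.2% and 47.6% of cells had their UMIs (639 and 382 CPM). In immune cells at 7 dpi the shares were 81.5% and 38.1% (4850 and 1377 CPM). *Sox9* made up 50.5 and 116 CPM of the chondrocyte sums in the Uninjured library and at 3 dpi. Satellite cells held *Sox9* at 46.8 and 139 CPM there. The part of matrix RNA in the differences was not tested. Macrophage markers summed to 8.09, 29.0 and 141 CPM, with *Lyz2* the most abundant and *Adgre1* at 0 UMIs in all 3, and endothelial markers to 10.1, 6.94 and 3.76 CPM, with *Cdh5* and *Kdr* at no more than 1 UMI. Neutrophil markers summed to 6.07, 95.6 and 9.40 CPM, most of it *S100a8* and *S100a9*, with *Ly6g* at 0 UMIs in all 3. The smooth muscle list summed to 3666, 1568 and 4006 CPM. *Acta2*, which developing skeletal muscle also expresses, was its most abundant gene in the Uninjured library and at 7 dpi (3251, 318 and 3007 CPM), *Des* was at 3 dpi, and *Myh11* and *Cnn1*, which define smooth muscle, gave 0 UMIs.

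Some of the genes outside the lists with large ratios in muscle-led cells are given here, named after their values had been seen. From the Uninjured library to 3 dpi, *Lgals3*, galectin 3, was 49.0-fold higher (23.7 to 122), *Ankrd1*, a titin-associated stress protein, 45.1-fold higher (21.9 to 112) and *Gal* 8.19-fold higher (6.32 to 10.8). *Mylk4*, a myosin kinase family member, was 59.4-fold lower (34.4 to 111), *Homer2*, a scaffold protein, 44.5-fold lower (21.4 to 107) and *Ptprf*, a receptor phosphatase, 35.9-fold lower (19.5 to 72.1). From 3 to 7 dpi *Sct*, the hormone secretin, was 29.0-fold higher (16.1 to 56.9), *Mylk4* 24.7-fold higher (13.8 to 47.3), *Ptprf* 21.1-fold higher (11.2 to 43.3) and *Csrp3*, muscle LIM protein, 25-fold higher (14.0 to 47.9), and *Gal* was 9.62-fold lower (7.34 to 12.8). Without the 5 highest cells of each library *Gal* stood at 9.09, 695 and 37.8 CPM. *Axl*, a receptor tyrosine kinase, was 13.3-fold lower (6.71 to 31.0) at 7 dpi.

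Muscle-led cells were next compared with satellite cells of the same library. These are separate gates, and no path between them was measured. Satellite cells were taken as at least 2 UMIs of *Pax7* with 0 of *Myog* and *Ptprc*, and were 174, 81, 201 and 105 cells in order of time, so that muscle-led cells numbered 24.1, 0, 54.2 and 78.1 per 100 of them. At 3 dpi 587 of 8861 genes were past 1.5-fold higher in muscle-led cells (6.62%) and 1313 lower (14.8%), and at 7 dpi 649 of 3177 were higher (20.4%) and 778 lower (24.5%), with median log2 ratios over all genes of -0.05 and 0.02. Of the thin filament genes 14 of 15 tested were higher at 3 dpi and 12 of 12 at 7 dpi. *Acta1* was 132-fold higher (81.3 to 232) at 3 dpi and 248-fold higher (106 to 764) at 7 dpi. The thin filament genes are among those that made a cell muscle-led, so their direction was favoured by the split, and *Pax7* and *Myog* define the gates and are no result here.

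**Figure D5:**
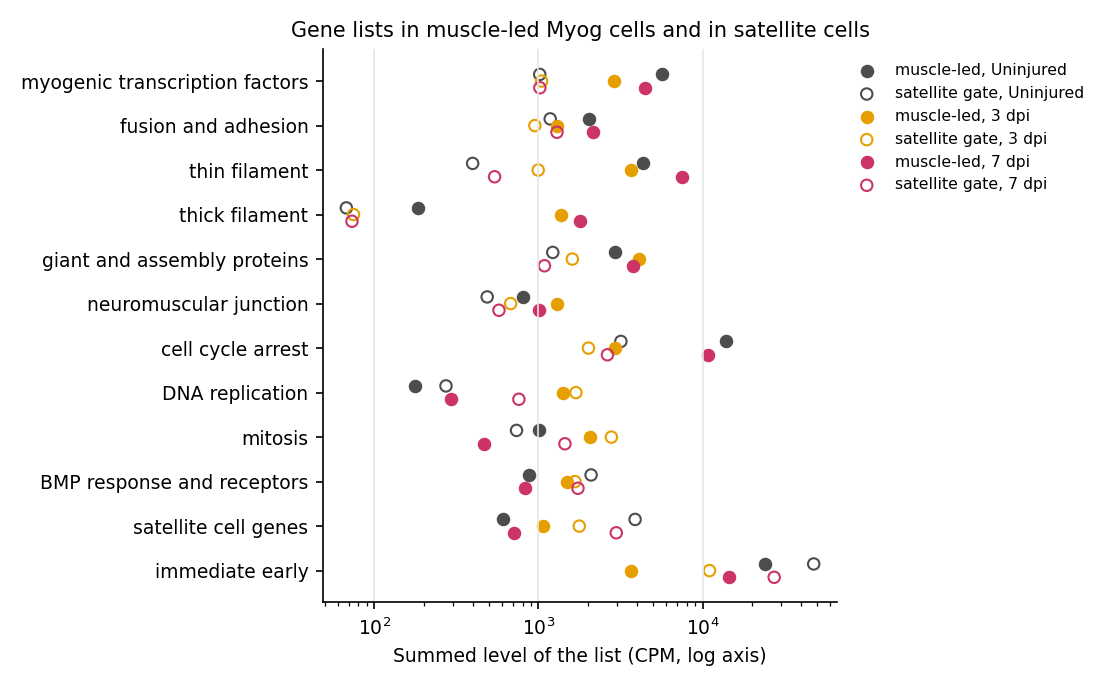
Summed level of 12 gene lists in muscle-led cells (filled) and in satellite cells (open) of the Uninjured, 3 dpi and 7 dpi libraries, in CPM on a log axis. Filled points lie right of open points of the same library for the thin and thick filament lists, and left of them for the satellite cell list, which holds the gating gene *Pax7*, and the immediate early list.

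Cell cycle genes were also set beside those of satellite cells. Of the 16 mitosis genes 4 were lower in muscle-led cells at 3 dpi (2048 against 2782 CPM), and all 8 tested were lower at 7 dpi (468 against 1450 CPM). None of the list reached 50 UMIs in muscle-led cells alone at 7 dpi, where *Top2a*, the most abundant, had 42. The limit on UMIs thus favoured genes high in satellite cells, the rest of the list was not tested, and no result is read from the count at 7 dpi. In the Uninjured library the sums were 1003 and 735 CPM. *Cdkn1c* stood at 33.2 CPM in satellite cells at 3 dpi and 73.1 at 7 dpi, against the 576 and 8341 CPM of muscle-led cells, and at 37.1 CPM in the Uninjured library. Of the BMP genes 0 of 11 were past the limit at 3 dpi (1503 against 1670 CPM), and 4 of 8 were lower at 7 dpi (826 against 1741 CPM). Over all genes 14.8% were lower at 3 dpi and 24.5% at 7 dpi. In the Uninjured library the BMP sums were 873 against 2093 CPM. Whether the difference itself changed between 3 and 7 dpi was not tested.

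Among Notch genes, which hold satellite cells in their undifferentiated state, *Notch3*, a receptor, and *Heyl*, a target, were lower than in satellite cells in each library, *Notch3* at 0 against 215 CPM, 16.3 against 81.0 CPM and 1.88 against 223 CPM. *Heyl* stood at 6.07 against 163 CPM (Uninjured), 21.2 against 105 CPM (3 dpi) and 9.40 against 206 CPM (7 dpi). *Dll1*, a Notch ligand, was higher in the Uninjured library (113 against 16.3 CPM) and at 3 dpi (66.2 against 15.1 CPM), and stood at 48.9 against 23.8 CPM at 7 dpi on fewer than 50 UMIs. *Hes6*, which promotes differentiation, was higher in each (330 against 31.9, 233 against 92.3 and 284 against 34.0 CPM). Of the satellite cell genes other than *Pax7*, 6 of 12 tested were lower at 3 dpi and 8 of 9 at 7 dpi. Over all genes these shares were 14.8% and 24.5%. At 7 dpi the list, with *Pax7*, summed to 711 CPM in muscle-led cells, with *Cdh15* the most abundant at 213 CPM, against 2980 CPM in satellite cells. The limit of 50 UMIs thus favoured genes high in satellite cells, as did the gate on *Pax7*, and no result is read from the count at 7 dpi. Genes outside the lists that were lower at 7 dpi, named after their values had been seen, included *Gpx3*, a secreted glutathione peroxidase (41.4 against 1158 CPM), *Apoe* (39.5 against 833 CPM) and *Chodl*, the membrane protein chondrolectin (13.2 against 435 CPM).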

How the data were processed

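Single-cell RNA libraries were made from collagenase-digested tibial muscle, 1 per time point. The deposited counts are raw UMIs per gene and cell for 32285 gene models, made by the authors with Cell Ranger 5.0.0 against mm10. The submitters' processing notes also name Seurat 3.1.1. Whether the deposited counts precede any down-sampling between libraries was not given in the sources used here. Libraries held 112317902, 91146335, 116346301 and 129007669 UMIs.

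No count model was fitted, because each time point is 1 library. Counts were summed over cells and given as CPM with exact Poisson intervals, ratios with exact conditional binomial intervals and shares with Clopper-Pearson intervals, all at 95%. These cover counting error only, and the limit for a count of 0 is 3 UMIs. A gene was called past 1.5-fold among genes with at least 50 UMIs over both groups. For depth, cells were thinned to 3000 UMIs. Doublets were scored with Scrublet in scanpy 1.11.5 and the highest 7.5% per library marked, not removed. Immune cells had at least 2 UMIs of *Ptprc*. The 29 lists held 341 genes. Some list results are not reported here. Named genes were list genes and the 10 with the largest ratio in each direction, between selected cells at 7 and 3 dpi and between selected and satellite cells, with at least 50 UMIs in the higher and 5 in the lower group. Further genes with large ratios in muscle-led cells were named after their values had been seen. Members and lists were chosen with earlier results of these data known. Promoters came from RefSeq (GRCm38.p6), gene positions from GENCODE for 32158 gene models. The calculations were tested on simulated data. Python 3.11.15, numpy 2.4.6, scipy 1.17.1 and pandas 2.3.3 were used.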

Additional observations from a re-analysis of the deposited data

How the results depend on the processing

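Alternatives were run on all selected cells unless stated; the restriction to muscle-led cells was chosen after seeing the data. With a limit of 1 *Myog* UMI the share of cells was 0.609% (Uninjured), 1.86% (3 dpi) and 2.48% (7 dpi), with 3 UMIs it was 0.751% at 3 dpi and 0.773% at 7 dpi, and for muscle-led cells 0.772% and 0.356%. The ratio of mitosis genes between 7 and 3 dpi (0.265) was 0.507 and 0.193 with limits of 1 and 3 *Myog* UMIs, 0.229 in muscle-led cells, 0.323 thinned, 0.311 with the median gene scaled to no change and 0.300 as a mean over cells. The ratio of thick filament genes (0.752) was 1.31 in muscle-led cells and 1.18 as a mean over cells, against 0.699 thinned, 0.883 scaled and 0.991 without *Mylpf*. The ratio of chondrocyte markers (49.1) was 78.3 and 36.8 with limits of 1 and 3 *Myog* UMIs, 5.91 in muscle-led cells, 57.6 scaled and 21.6 without its most abundant gene.

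The number of genes higher at 7 dpi (1360) was 2166 with at least 20 UMIs, 5197 with no limit and 811 in muscle-led cells, and the number lower (2432) was 3057 with at least 20 UMIs and 4992 with no limit. With the median gene scaled to no change 1864 were higher and 1688 lower. The share of cells with *Mki67* or *Top2a* was 42.3% at 3 dpi after thinning and 12.2% in muscle-led cells at 7 dpi. The ratio of cell cycle arrest genes (2.20) was 0.839 without *Cdkn1c*. Endothelial markers turned to 0.542 in muscle-led cells, and red cell markers to 0.467 with 1 *Myog* UMI, 0.0853 in muscle-led cells and 0.517 thinned. Except where a setting itself removes cells or genes, the cause was not tested. No paired analysis was possible because each time point is 1 library, and no replicate could be left out. Shallow cells at 7 dpi limit the genes that could be compared with satellite cells.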
